A study of Saccharomyces cerevisiae with 24 samples.

Results

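The genes described here carry the symbols of amino acid biosynthesis in budding yeast (Saccharomyces cerevisiae). They are the annotated genes named ARG, HIS, ILV, LEU, LYS, TRP, ASN, SER, HOM, THR, ARO, GLN, GLT, CPA or PRO and a number. Of 72 such symbols, HIS3, LEU2 and TRP1 were left out because they serve as selectable markers in these strains, and 69 genes remained of the 7126 features in the expression table. Genes were kept when their mean over the 24 libraries was at least 1 FPKM, that is, fragments per kilobase of transcript scaled to the number of mapped fragments. All 69 genes met that filter, as did 6359 features in total. The choice rests on symbols and on that mean, and not on any difference between samples.

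The study sequenced poly(A) RNA from a wild type (WT) and 3 mutant strains, called Mut1, Mut2 and Mut3, before and at 10 and 20 min after addition of 0.4 M NaCl. Each of the 12 combinations of strain and time had 2 libraries, called library 0 and library 1 after the last digit of their column. Every strain, WT included, was made in W303-1a (mating type a) with SHO1 replaced by HIS3 and a qVenus reporter under the STL1 promoter placed at leu2 together with LEU2. Mut1 carried Ypd1 with M20D and Sln1 with E1101K, E1110K and S1179D. Mut2 carried Ypd1 with both M20D and M92K and the Sln1 protein of Mut1. Mut3 carried Ypd1 with I13D and Sln1 with E1101K, L1109K, E1110K and S1179D. The YPD1 cassette was marked with TRP1 and HPH and the SLN1 cassette with URA3 and KanMX. Cells grew to mid-log phase in synthetic complete medium, which supplies amino acids. Sln1 is an osmosensing histidine kinase of the high-osmolarity glycerol (HOG) pathway, and Ypd1 passes its phosphate on. The labels do not say whether the libraries of a group came from separate cultures or whether each strain is a single clone, so the p-values below measure the spread between these libraries only.

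Budding yeast can make every amino acid itself. When amino acids run short, translation of the transcription factor Gcn4 increases, and Gcn4 activates genes of most of these pathways through sites that contain TGACTC. Further factors act on single pathways: Leu3 on branched-chain genes, Lys14 on lysine genes, the Arg80, Arg81 and Arg82 proteins with Mcm1 on arginine genes, and Aro80 on genes that break down aromatic amino acids. Gcn4 is controlled mainly in translation, so its mRNA level is not a measure of its protein.

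The deposited values were FPKM, and read depth is unknown, so no counting interval can be given. Summed FPKM per library ranged from 1850840 to 2995690 and was lower late after salt, with 2669630 and 2488280 in the WT before it and 1942270 and 1984220 at 20 min. Library 1 exceeded library 0 in all 12 groups for 21 of the 69 genes, and library 0 exceeded library 1 in all 12 for 11. ARG80 differed most between the library numbers, with 25.1 FPKM in library 0 and 84.2 in library 1 of the WT at 10 min, and no test of it is read here. In Mut2 at 20 min, library 0 had an RNA-gene sum of 75937 FPKM against 5293 to 17159 in the other libraries. Without that library 41 of the 69 genes were called between 20 and 0 min in Mut2, against 44 with it. SHO1 was listed at 0 in all 24 libraries. All 5 mating type a markers were above 0 in each group, with a summed level of 2487 FPKM or more, while the summed level of the alpha markers was 49.5 FPKM or less. LYS20 and LYS21 share 94.97% of their aligned coding sequence and SER3 lies over the RNA gene SRG1 on the same strand, so all values of these 3 genes are uncertain.

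The Gcn4 core letters TGACTC, searched on both strands in the 500 bases before the start codon, were present in 46 of the 69 genes (66.7%) and in 759 of 6019 protein-coding genes (12.6%). The lines below show the match nearest to the start codon, in 25 bases 5′ to 3′ on the gene's strand, for genes on which the results turn. Capitals mark TGACTC, or GAGTCA where the match lies on the opposite strand. Coordinates are those of the R64 (sacCer3) genome, and a match is a description of letters, not of binding.
ARG3, chrX:268476-268500, plus strand: gtcacgtcgTGACTCatatgctttc
ARO5, chrVII:288249-288273, plus strand: atatataatGAGTCAtttgtttctg
HIS4, chrIII:68517-68541, minus strand: catgcacagTGACTCacgttttttt
HOM3, chrV:258226-258250, minus strand: tcaggcccaTGACTCaccttttctt
ILV5, chrXII:839378-839402, minus strand: gacctaactTGACTCaatggctttt
ASN1, chrXVI:822384-822408, plus strand: tgtaacattTGACTCattctgtaaa
LEU4, chrXIV:426840-426864, minus strand: acgtgtaagTGACTCagttctttca
LEU9, chrXV:522761-522785, plus strand: cgtagtgaaTGACTCatatttttcc
SER33, chrIX:222629-222653, minus strand: gctggaaacGAGTCAccgttatgaa

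Of the 46 genes with TGACTC, 13 were lower and 2 higher in Mut1 than in the WT before salt. Those counts were 9 and 2 in Mut2 and 6 and 1 in Mut3. Of the 23 genes without it, 4, 2 and 0 were lower in Mut1, Mut2 and Mut3, and 0 were higher in each. Of all features 1.56%, 1.62% and 0.425% were lower and 3.07%, 2.89% and 1.2% higher. ARG3, ARO5, HIS4 and LEU9 were lower in at least 1 mutant and SER33 and LEU4 higher. Calls of ARO5, LEU9 and LEU4 did not hold under every alternative, as given below. ARO9, ARO10, ARO80, ARG82 and LEU5, the 5 genes that rose at 20 min in all 4 strains, held no TGACTC in that window. LEU1, with 1 match, and HIS5, with 3, did hold it and were called higher in the WT at 20 min. The HIS5 call did not hold under every alternative, as given below. Promoter matches of the Leu3 type, CCGNNNNCGG on both strands, were present in 8 of the 69 genes (11.6%) and in 198 of all protein-coding genes (3.29%). They are shown for LEU1, which rose with salt, and for ILV2 and ILV5, which fell, with the letters of the match in capitals. No TGACTC match can lie wholly within a Leu3-type match.
LEU1, chrVII:478822-478846, minus strand: gttttgtCCGTAACCGGcttcatga
ILV2, chrXIII:483609-483633, plus strand: gagcctgCCGGTACCGGcttggctt
ILV5, chrXII:839613-839637, minus strand: gtctcctCCGGTACCGGttctgcca

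Levels before salt ranged widely. In the WT at 0 min the mean of the 2 libraries ran from 8.07 FPKM for ARO80 to 1348 FPKM for ILV5, with a median of 136 FPKM over the 69 genes. ILV5, the acetohydroxyacid reductoisomerase of isoleucine and valine synthesis, and ARO4, an enzyme of the first step of the shikimate pathway, were the 2 genes over 1000 FPKM. Another 7 genes were under 20 FPKM, among them the regulators ARO80 and LEU3 and the mitochondrial carrier gene LEU5.

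After salt, transcripts of many biosynthetic enzymes were lower in the WT and those of a small, different set were higher. The series holds no libraries without salt at 10 or 20 min. Effects of salt, of time and of handling at its addition therefore cannot be told apart. Changes with salt are changes from 0 min throughout. Differences were tested with limma on log2(FPKM + 1), and a gene is said to rise, fall or be called when its Benjamini-Hochberg adjusted p over the 6359 features was under 0.05. Folds are ratios of FPKM + 1. At 10 min 34 of the 69 genes fell, against 17.6% of all features tested, and 8 rose, against 17.6%. At 20 min 42 fell, against 22.5%, and 7 rose, against 24.5%. The median log2 change of the 69 genes was -0.41 at 10 min and -0.78 at 20 min, while the median over all features was 0.02 and 0.07. In the FPKM summed over a library, these genes held 0.590% and 0.681% before salt. They held 0.440% and 0.468% at 10 min and 0.456% in both libraries at 20 min. In RNA from a whole culture, fewer cells with a transcript and less of it per cell cannot be told apart. The heat map of changes by pathway shows where the falls and rises lie.

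**Figure D1:**
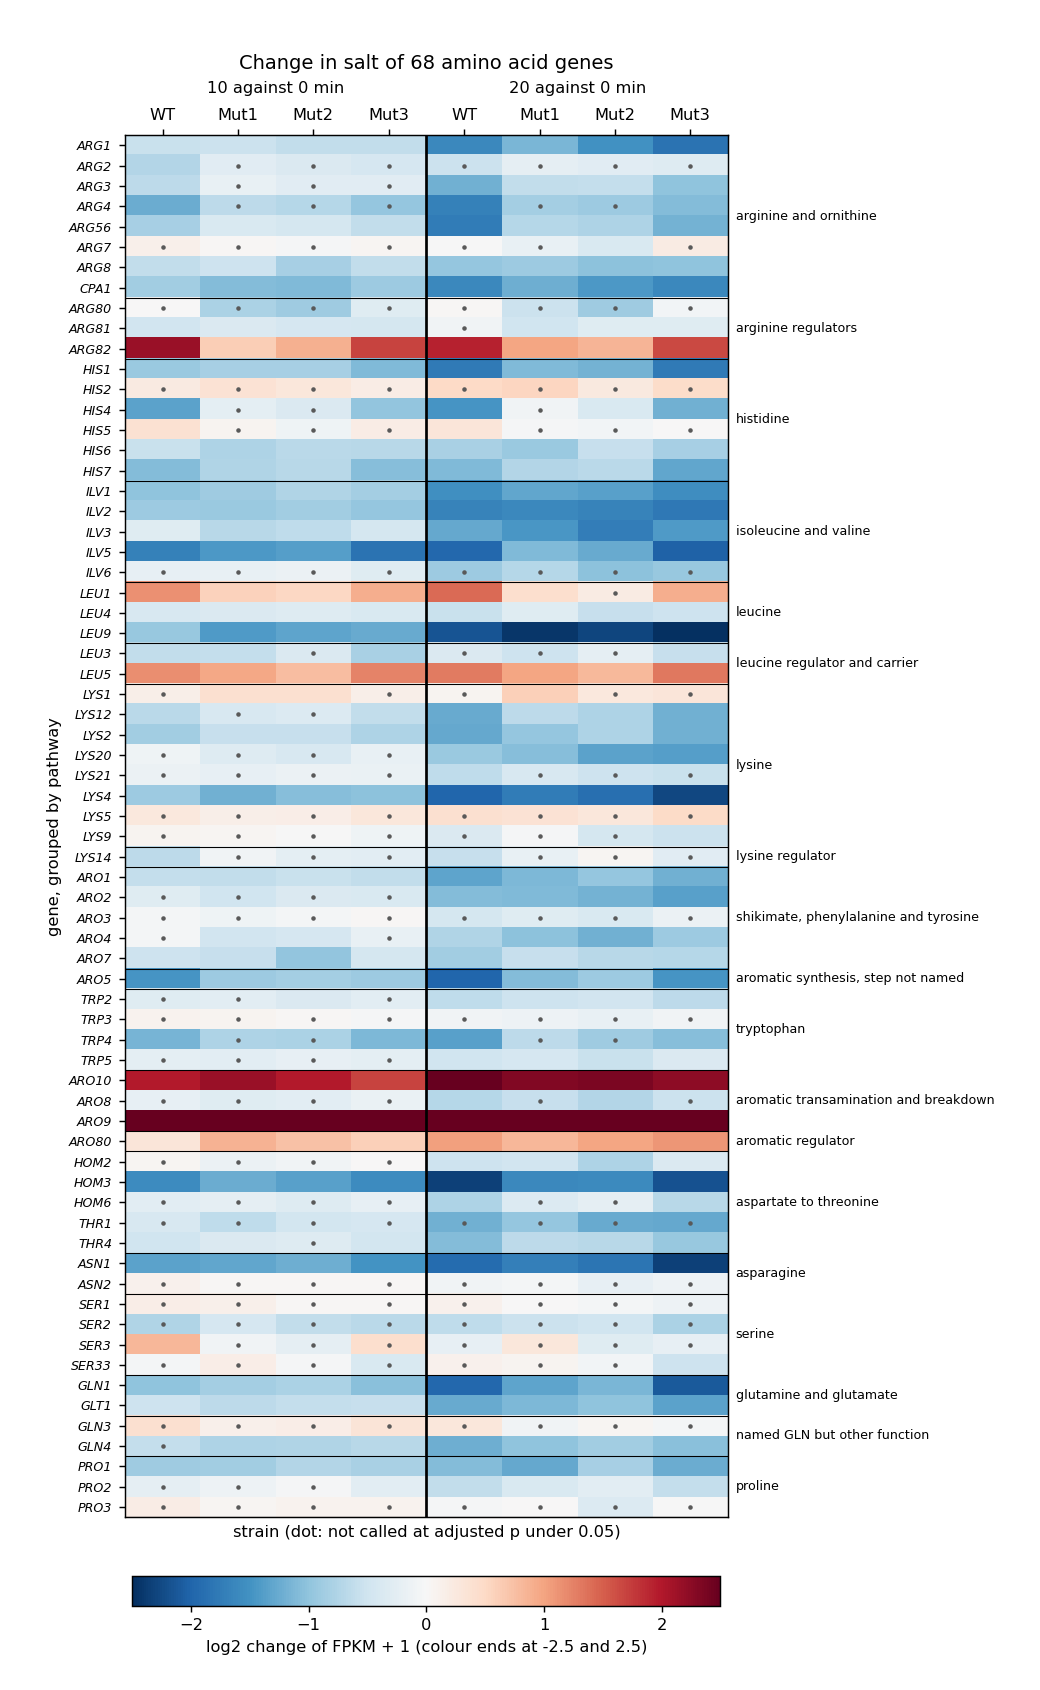
Log2 change of FPKM + 1 at 10 and 20 min against 0 min for 68 of the genes (vertical, grouped by pathway) in the 4 strains (horizontal). Blue is lower and red higher, colours end at 2.5 in either direction, and a dot marks a change that was not called. Most enzymes of arginine, branched-chain, shikimate and lysine synthesis are blue in each strain, while ARO9, ARO10, ARO80, ARG82 and LEU5 are red.

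In arginine synthesis 8 of 9 genes fell at 10 min and 7 at 20 min, with a median log2 change of -1.61 at 20 min in the WT. CPA1, a subunit gene of the carbamoyl phosphate synthetase that serves arginine, went from 273 and 317 FPKM to 143 and 179.5 at 10 min and 91.3 and 99.2 at 20 min (log2 change -1.62, SE 0.18, adjusted p = 3.35e-06). The libraries of each time lay apart from those of the other times, in descending order. ARG56, which encodes the precursor of the acetylglutamate kinase and reductase, fell 3.34-fold, from 80.5 and 85.2 FPKM to 24.0 and 24.2. ARG1, argininosuccinate synthetase, fell 3.06-fold, from 382 and 403 FPKM to 120.3 and 135. ARG4, argininosuccinate lyase, went from 214 and 289.6 FPKM to 67.0 and 86.2, a 3.25-fold fall (adjusted p = 0.00219). ARG7, ornithine acetyltransferase, was the exception that stayed near its starting level, with 129 and 143 FPKM before and 137 and 134 at 20 min, a log2 change of -0.00 (SE 0.09). ARG2, acetylglutamate synthase, had a log2 change of -0.54 at 20 min that was called lower only with the library number as a block in the fit (adjusted p = 0.067 without the block and 0.000432 with it).

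Among the arginine regulators, ARG82 (YDR173C), an inositol polyphosphate kinase that also acts with the Arg80-Arg81 complex, moved the other way. ARG82 stood at 9.96 and 9.45 FPKM before salt in the WT, at 51.2 and 43.0 at 10 min and at 43.1 and 36.6 at 20 min. All 4 WT libraries after salt lay above both libraries before it, by 4.48-fold at 10 min (log2 change 2.16, SE 0.17, adjusted p = 1.78e-07). ARG81, the zinc-cluster protein of that complex, fell at 10 min (log2 change -0.47, SE 0.10) and was not called at 20 min (log2 change -0.09).

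In histidine synthesis 4 of 6 genes fell at both times. HIS4 (YCL030C), which encodes a protein with several activities of the pathway, stood at 94.0 and 86.4 FPKM before salt, at 36.4 and 34.0 at 10 min and at 32.4 and 31.5 at 20 min. Its fall was nearly complete at 10 min, when it was 2.52-fold lower. HIS1, the ATP phosphoribosyltransferase of the first step, went from 458 and 589 FPKM to 246 and 299.6 and then to 142 and 165. That fall came to 3.38-fold at 20 min (log2 change -1.76, SE 0.23, adjusted p = 1.89e-05). HIS7 and HIS6, enzymes of the middle steps, fell by 1.11 and 0.81 on the log2 scale at 20 min. HIS5, the histidinol-phosphate aminotransferase, was the gene of this pathway called higher, at 93.7 and 98.5 FPKM before salt and 125 and 114 at 20 min (log2 change 0.31, SE 0.10). Its call at 20 min (adjusted p = 0.0238) did not hold when WT 0 min library 0 (adjusted p = 0.123) or WT 20 min library 0 (adjusted p = 0.152) was left out, nor after median-ratio rescaling (adjusted p = 0.229).

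The branched-chain genes split. In isoleucine and valine synthesis 4 of 5 genes fell at both times. ILV5 went from 1305 and 1391 FPKM to 446 and 395 at 10 min and 381 and 313 at 20 min in the WT (3.89-fold lower at 20 min, adjusted p = 8.32e-08). ILV1, threonine deaminase, fell 2.88-fold at 20 min, from 372 and 373 FPKM to 132 and 126. ILV2, the catalytic subunit of acetolactate synthase, fell by 1.68 on the log2 scale, and ILV3, dihydroxyacid dehydratase, by 1.29. ILV6, the regulatory subunit of acetolactate synthase, had higher values in library 1 than in library 0 in all 12 groups, and its log2 change of -0.91 at 20 min was called with the block alone (adjusted p = 0.121 without and 1.01e-05 with it). In the leucine branch, LEU1 (YGL009C), isopropylmalate isomerase, rose while both isopropylmalate synthase genes fell. LEU1 stood at 70.3 and 62.3 FPKM before salt, at 157 and 140.0 at 10 min and at 185 and 173 at 20 min. The groups did not overlap, and LEU1 was 2.68-fold higher at 20 min (log2 change 1.42, SE 0.14, adjusted p = 1.41e-06). LEU5, a mitochondrial carrier gene whose loss gives a leucine requirement, rose 2.47-fold, from 14.2 and 15.4 FPKM to 38.3 and 37.7.

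**Figure D2:**
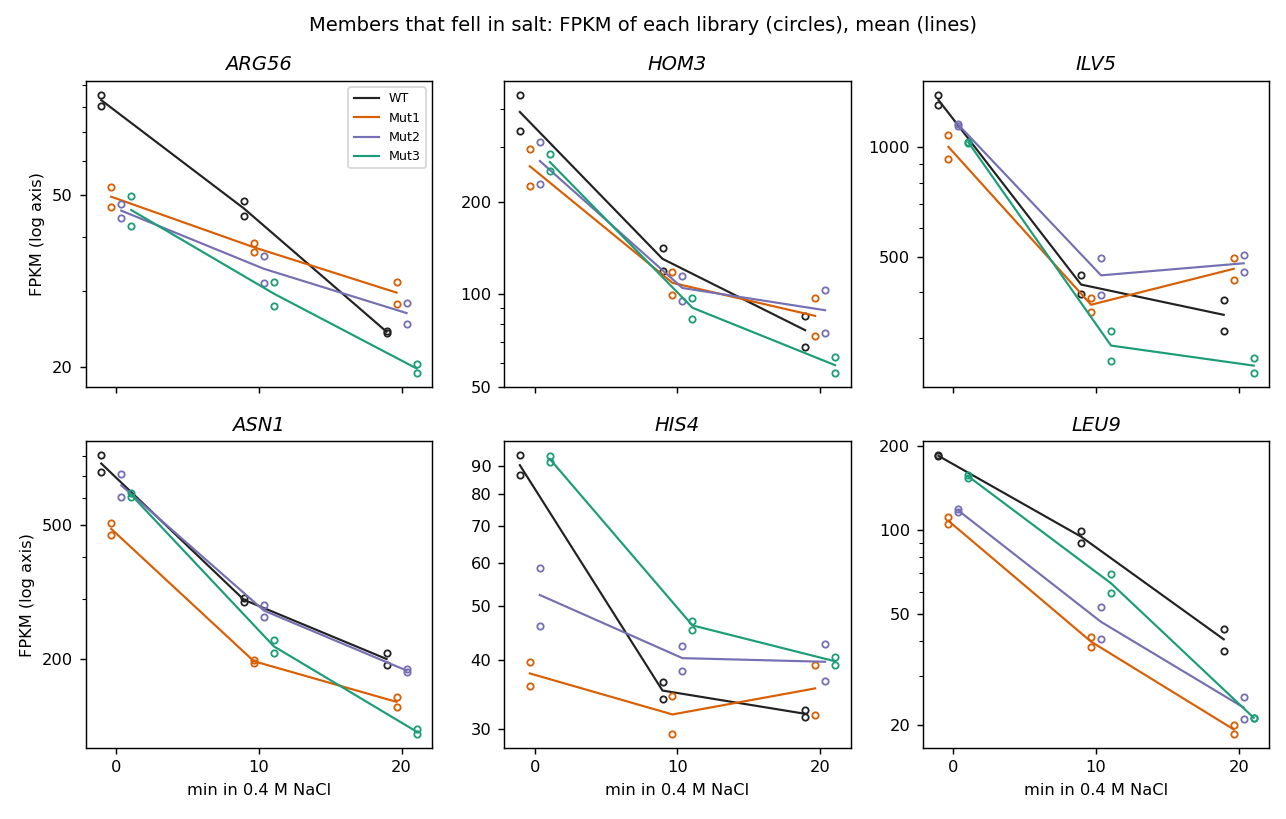
FPKM (log axis) of ARG56, HOM3, ILV5, ASN1, HIS4 and LEU9 against minutes after 0.4 M NaCl in the 4 strains, with circles for single libraries and lines through the mean of the 2 libraries. ARG56 in the WT goes from 80.5 and 85.2 to 24.0 and 24.2, while HIS4 in Mut1 starts at 35.9 and 39.6 and ends at 31.8 and 39.2.

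The pair LEU4 and LEU9 encode isopropylmalate synthases that share 81.3% of aligned coding sequence. LEU9 fell from 185 and 184 FPKM to 44.2 and 36.9 at 20 min in the WT (4.48-fold, adjusted p = 1.05e-08), and LEU4 from 295 and 286 to 194 and 200.4 (log2 change -0.56, SE 0.10, adjusted p = 0.000293). The ratio of LEU4 to LEU9 went from 1.59 and 1.56 in the 2 WT libraries to 4.38 and 5.43. In Mut1 that ratio started at 3.47 and 3.64 and reached 14.9 and 17.5. In Mut3 it went from 1.94 and 2.28 to 10.3 and 11.1, and in each of these strains both libraries at 20 min lay above both at 0 min.

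In lysine synthesis 5 of 8 genes fell at 20 min in the WT. LYS4, homoaconitase, went from 102 and 159 FPKM to 26.1 and 38.4 (3.93-fold lower, adjusted p = 6.66e-05). LYS2, aminoadipate reductase, went from 80.7 and 82.4 FPKM to 33.4 and 33.0 (2.41-fold lower, adjusted p = 3.43e-08). LYS12, homoisocitrate dehydrogenase, went from 403 and 352 FPKM to 167 and 148 (2.39-fold lower). LYS1, the saccharopine dehydrogenase of the last step, was not called in the WT, with 121 and 124 FPKM before and 123 and 133 at 20 min. LYS9, the dehydrogenase of the step before it, read 263 and 235 FPKM before and 210.0 and 177 at 20 min, a fall called with the block alone (adjusted p = 0.0939 without and 0.000163 with it). The homocitrate synthase genes LYS20 and LYS21 had log2 changes of -0.93 and -0.63 at 20 min, with the uncertainty of near-identical copies. LYS21 lost its call after median-ratio rescaling (adjusted p = 0.103) and without WT 0 min library 1 or WT 20 min library 0. The regulator LYS14 had a log2 change of -0.58 at 20 min, which was no longer called on leaving out WT 0 min library 1 (adjusted p = 0.0553) or WT 20 min library 0 (adjusted p = 0.0572).

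The aromatic genes moved in opposite directions by role. In the shikimate, phenylalanine and tyrosine group 4 of 5 genes fell at 20 min in the WT, led by ARO1, the pentafunctional enzyme of the central steps, from 113 and 113 FPKM to 47.5 and 42.2 (log2 change -1.32, SE 0.09). ARO4, a synthase of the first step, went from 1096 and 1016 FPKM to 1095 and 954 at 10 min and 647 and 613 at 20 min, a fall seen at 20 min alone (adjusted p = 0.000289 at 20 min and 0.841 at 10 min). Its isozyme gene ARO3 read 458 and 335 FPKM before and 327 and 256 at 20 min, lower with the block alone (adjusted p = 0.163 without and 0.00019 with it). ARO7, chorismate mutase, fell by 0.87 on the log2 scale at 20 min. ARO2, chorismate synthase, had a log2 change of -1.08 that was no longer called without WT 0 min library 1 (adjusted p = 0.166) or WT 20 min library 0 (adjusted p = 0.139). Of the 4 tryptophan genes 3 fell at 20 min, TRP4, TRP2 and TRP5, with log2 changes of -1.36, -0.64 and -0.51. TRP3 was not called, and leaving out WT 0 min library 1 ended the call of TRP4 (adjusted p = 0.0595). ARO5 (YGL117W), a symbol without a step named in the annotation used, fell 3.96-fold in the WT.

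ARO9 and ARO10, genes of aromatic amino acid breakdown, had the largest rises of the 69 at 20 min in the WT. ARO9 (YHR137W), an aromatic aminotransferase of tryptophan, phenylalanine and tyrosine breakdown, stood at 11.7 and 18.7 FPKM before salt, at 158 and 226 at 10 min and at 225 and 315 at 20 min in the WT. Every library after salt was above both before it, by 16.9-fold on the mean log scale at 20 min (log2 change 4.08, SE 0.41, adjusted p = 1.18e-06). ARO10, phenylpyruvate decarboxylase, the next enzyme, went from 32.8 and 27.0 FPKM to 222 and 198 (6.84-fold, adjusted p = 6.12e-10). ARO80, the activator of both genes, went from 8.04 and 8.11 FPKM to 17.6 and 17.2 at 20 min (2.03-fold, adjusted p = 2.71e-06). At 10 min ARO80 stood at 9.77 and 10.6 FPKM in the WT. Its call there (adjusted p = 0.0466) was lost on leaving out any of the 4 libraries, after rescaling and with another pseudocount. ARO80 was called higher at 10 min in each mutant too. It went from 7.5 and 8.3 FPKM to 15.3 and 15.2 in Mut1 and from 7.0 and 8.1 to 12.4 and 13.8 in Mut2. In Mut3 it went from 7.5 and 8.7 to 12.2 and 13.3. ARO8, the aminotransferase of synthesis, was 304 and 423 FPKM before and 192 and 249 at 20 min. The ratio of ARO8 to ARO9 thus went from 26.1 and 22.6 to 0.853 and 0.789 in the WT. The ARO8 fall at 20 min (adjusted p = 0.0348) was lost without WT 0 min library 1 or WT 20 min library 0.

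**Figure D3:**
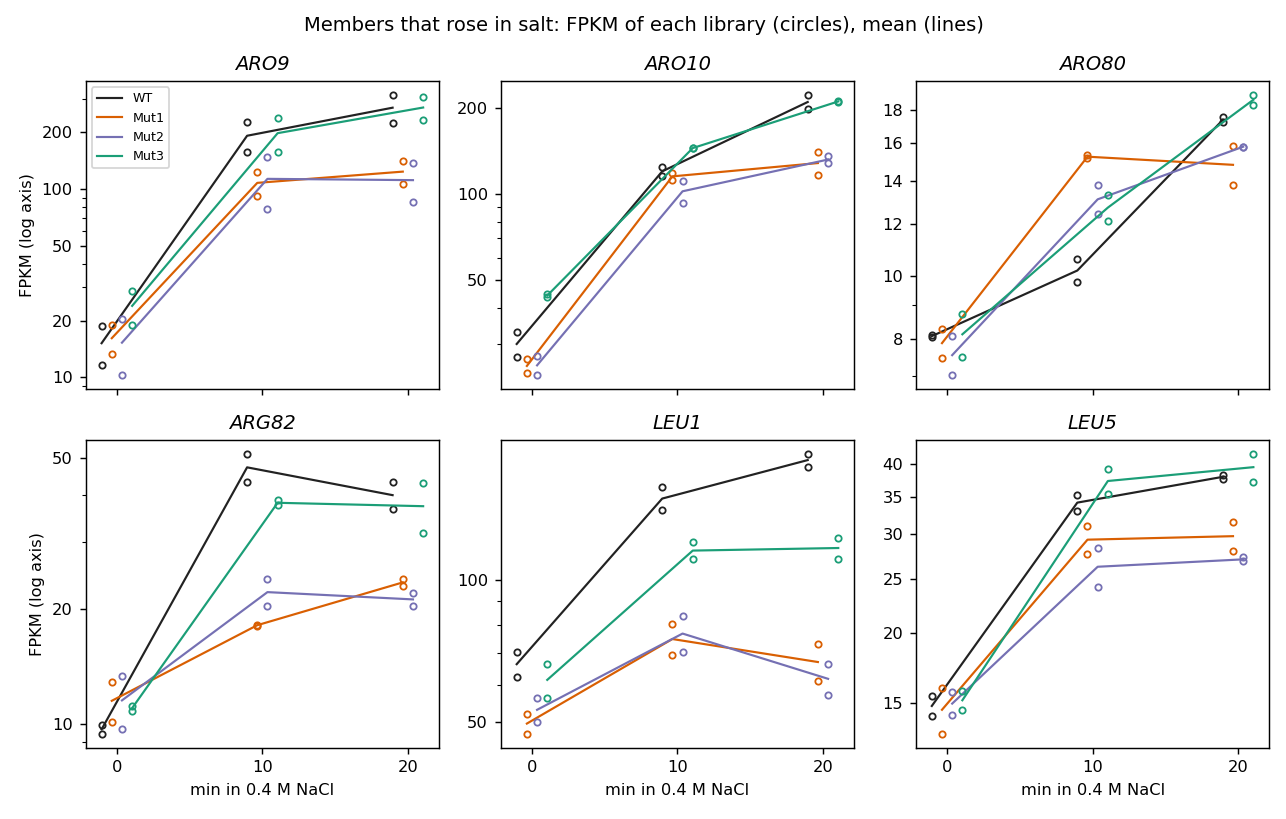
FPKM (log axis) of ARO9, ARO10, ARO80, ARG82, LEU1 and LEU5 against minutes after 0.4 M NaCl in the 4 strains, with circles for single libraries and lines through the mean of the 2 libraries. ARO9 in the WT goes from 11.7 and 18.7 to 225 and 315, and the LEU1 and ARG82 lines of Mut1 and Mut2 lie below those of the WT after salt.

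In the path from aspartate to threonine HOM3, aspartate kinase, the first enzyme, fell 5.05-fold at 20 min in the WT. Its libraries read 444 and 338 FPKM before salt, 142 and 119 at 10 min and 85.4 and 67.6 at 20 min. HOM2, the next enzyme, was not called at 10 min, with 870.3 and 854 FPKM before and 905 and 878 then, and fell to 601 and 596 at 20 min (log2 change -0.53, SE 0.10, adjusted p = 0.000504). HOM6, homoserine dehydrogenase, and THR4, threonine synthase, fell by 0.78 and 1.08 on the log2 scale at 20 min. THR1, homoserine kinase, also had higher values in library 1 in all 12 groups, from 212 and 430.5 FPKM before to 95.3 and 179.5 at 20 min, called with the block alone (adjusted p = 0.0888 without and 1.93e-08 with it).

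The asparagine synthetase genes, 81.2% identical, parted. ASN1 went from 717 and 804 FPKM to 296 and 303 and then to 208 and 191, 3.80-fold lower at 20 min (adjusted p = 3.55e-09). ASN2 read 332 and 528 before and 347 and 442 at 20 min, was not called in any strain, and had a log2 change of -0.10 (SE 0.32). The ASN1 to ASN2 ratio went from 2.16 and 1.52 to 0.598 and 0.433 in the WT. Glutamine synthetase, GLN1, fell 3.90-fold at 20 min, from 539.5 and 540.1 FPKM to 142 and 133, and glutamate synthase, GLT1, 2.40-fold. GLN4, a tRNA ligase gene that shares only the symbol, fell, and GLN3, a regulator of nitrogen genes, was called, higher, with the block alone (adjusted p = 0.482 without and 0.0309 with it). In proline synthesis PRO1 and PRO2, the first enzymes, fell and PRO3, the last, was not called. Of the 4 serine genes 0 were called in the WT at 20 min, and SER2, phosphoserine phosphatase, was called lower with the block (adjusted p = 0.125 without and 1.31e-05 with it).

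SER3 and SER33 encode phosphoglycerate dehydrogenases, 83.3% identical. In the WT SER3 went from 70.9 and 60.0 FPKM to 126 and 107 at 10 min and back to 65.9 and 48.6 at 20 min. That rise at 10 min (adjusted p = 0.00891) did not hold when WT 0 min library 1 (adjusted p = 0.0704) or WT 10 min library 0 (adjusted p = 0.072) was left out, nor after rescaling. The overlapping SRG1 read 20.4 and 20.6, then 32.7 and 44.2, then 23.2 and 23.2 FPKM, and its part in the SER3 values was not tested.

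**Figure D4:**
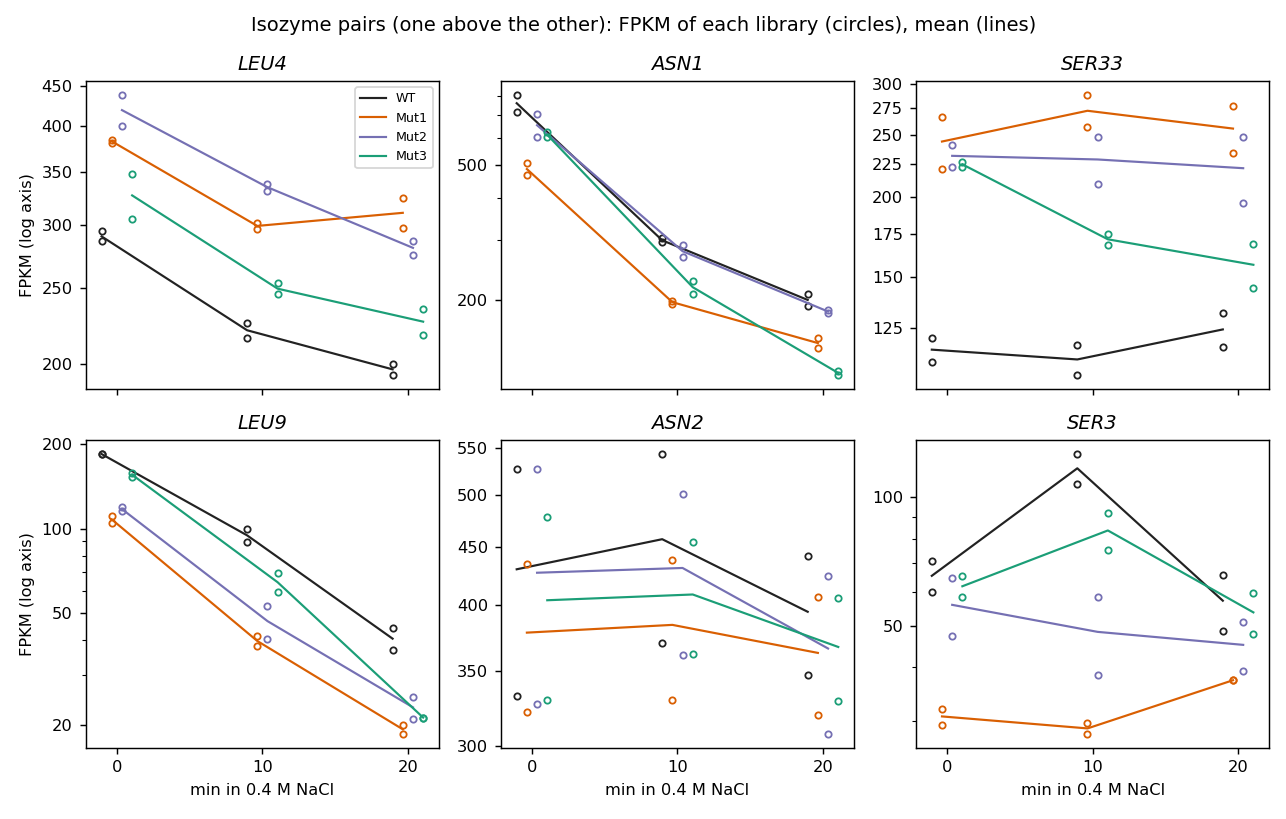
FPKM (log axis) of both members of the isozyme pairs LEU4 and LEU9, ASN1 and ASN2, and SER33 and SER3 in each library, by strain and time. LEU9 falls further than LEU4 in each strain, ASN1 crosses below ASN2 in the WT, and SER33 lies higher in the mutants than in the WT before salt.

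In the mutants, too, many of these genes fell with salt and few rose. At 10 min 29 of the 69 genes fell in Mut1 (15.5% of all features), 28 in Mut2 (15.4%) and 32 in Mut3 (16.7%), and 7, 7 and 6 rose (15.8%, 16.3% and 17.5%). At 20 min 36 fell in Mut1 (19.5%), 39 in Mut2 (18.2%) and 43 in Mut3 (22.4%), and 7, 5 and 6 rose (20.2%, 21.5% and 25.3%). The 4 strains have libraries of their own, but the fit shares the same spread per gene between them, so their calls are not independent. Of the 47 genes that fell in any strain at 20 min, 35 fell in all 4, and 0 fell in a strain while rising in another. Over all features 54.3% of those that fell in any strain fell in all 4, and 0.346% of features were called in opposite directions. ARG82, ARO9, ARO10, ARO80 and LEU5 rose at 20 min in all 4, as did 15.7% of all features. At 20 min 14 genes were called in no strain, and with the block 11 of these were called in at least 1 strain, the other 3 being ASN2, SER1 and SER3. Of all features 42.2% were called in no strain, and the block called 65.9% of those in at least 1. With the block 49 genes fell at 20 min in the WT (31.9% of all features), 48 in Mut1 (29.6%), 52 in Mut2 (29.1%) and 50 in Mut3 (31%), and 10, 9, 7 and 10 rose (38.8%, 34%, 35.5% and 39.5%). Median log2 changes of the 69 genes at 20 min were -0.57 in Mut1, -0.67 in Mut2 and -0.80 in Mut3, against 0.05, 0.08 and 0.10 for all features.

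Between 10 and 20 min more genes fell in FPKM in the WT and Mut3 than in Mut1 and Mut2. This difference between strains was not itself tested. In the WT summed FPKM went from 2696450 and 2683170 to 1942270 and 1984220. The share these genes held of it went from 0.440% and 0.468% to 0.456% in both libraries. That share went from 0.390% and 0.440% to 0.390% and 0.385% in Mut1. It went from 0.407% and 0.446% to 0.402% and 0.456% in Mut2, and from 0.385% and 0.420% to 0.354% and 0.374% in Mut3. From 10 to 20 min 24 genes fell in the WT (8.08% of all features), 8 in Mut1 (1.62%), 12 in Mut2 (2.17%) and 23 in Mut3 (8%), and 3, 0, 0 and 2 rose (6.13%, 1.38%, 2.14% and 6.18%). LEU9 fell in each, from 99.4 and 89.9 FPKM to 44.2 and 36.9 in the WT and from 41.4 and 38.2 to 20.0 and 18.6 in Mut1. Leaving out a library lowered the count in both directions together to between 17 and 21 in the WT, 2 and 5 in Mut1, 3 and 10 in Mut2 and 15 and 17 in Mut3. The block gave 40, 31, 33 and 38 lower (19%, 10%, 13.7% and 18.1%) and 6, 1, 1 and 4 higher (22.8%, 10.2%, 14.7% and 24.2%).

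Of the 35 genes that fell at 20 min in all 4 strains, 26 held TGACTC (74.3%), as did 20 of the other 34 (58.8%). In the WT at 20 min the median log2 change was -1.02 over the 46 genes with TGACTC, of which 30 fell and 2 rose. It was -0.51 over the 23 without, of which 12 fell and 5 rose. At 20 min the medians with and without TGACTC were -0.654 and -0.402 in Mut1, -0.73 and -0.518 in Mut2 and -0.975 and -0.539 in Mut3. From 10 to 20 min they were -0.368 and -0.379 in the WT and -0.38 and -0.354 in Mut3. Over the same interval they were -0.22 and -0.119 in Mut1 and -0.242 and -0.105 in Mut2. The general stress letters AGGGG, on both strands, were in 22 of the 69 genes (31.9%) and in 34% of all protein-coding genes, and Lys14-type letters TCCNNNGGA, which can contain AGGGG, in 9 (13%) and in 5.95%.

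GCN4 itself, which is not among the 69, fell with salt in all 4 strains. Its mRNA read 2377 and 2214 FPKM before salt in the WT, 1036 and 987 at 10 min and 790.0 and 699.8 at 20 min (log2 change -1.62, SE 0.11, adjusted p = 2.55e-08 at 20 min). In Mut1 GCN4 went from 2594 and 2431 to 1332 and 1324 FPKM and in Mut2 from 2472 and 2689 to 1396 and 1281, so both ended above the WT. In Mut3 it ended at 717 and 672. GCN4 was not called between any mutant and the WT before salt.

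Related genes with other symbols are given for the WT at 20 min, where 22.5% of all features fell and 24.5% rose. Of 18 other amino acid enzymes and transporters, 7 fell, among them the dehydrogenase gene GDH1 and the branched-chain aminotransferase gene BAT1, and 3 rose, CHA1, GDH2 and ALT1. Of 8 genes for Gcn4 and its control 5 fell and 1 rose. Of 10 nitrogen catabolite genes 2 rose, PUT2 and CAR2, and 2 fell. Of 9 retrograde pathway genes 2 rose, CIT2 and RTG2, and 1 fell.

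Before salt more of these genes were lower than higher in each mutant relative to the WT. Where a mutant carried cassette markers that the WT lacked, effects of the substitutions and of the markers cannot be told apart. Of the 69 genes 17 were lower in Mut1, against 1.56% of all features, 11 in Mut2 (1.62%) and 6 in Mut3 (0.425%). Higher were 2 in Mut1 (3.07%), 2 in Mut2 (2.89%) and 1 in Mut3 (1.2%). Among the 9 genes of arginine synthesis 5 were lower in Mut1, 3 in Mut2 and 4 in Mut3, and 0 were higher. With the library number as a block the counts over the 69 were 33, 25 and 22 lower (6.49%, 8.68% and 2.61%) and 2, 3 and 3 higher (11.6%, 12.2% and 5.3%). The 3 comparisons share the WT libraries, so likeness between them is not independent. After median-ratio rescaling Mut3 had 6 lower and 0 higher.

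ARG3 (YJL088W), ornithine carbamoyltransferase, showed the largest difference. ARG3 stood at 113 and 89.5 FPKM in the WT, at 24.0 and 28.1 in Mut1, at 34.4 and 24.9 in Mut2 and at 35.6 and 33.2 in Mut3. Both WT libraries lay above all 6 mutant libraries. ARG3 was 3.76-fold lower in Mut1 (adjusted p = 1.7e-05), 3.35-fold in Mut2 (adjusted p = 4.38e-05) and 2.87-fold in Mut3 (adjusted p = 0.000239). ARG56 and LYS2 were likewise below the WT, by log2 differences in Mut1, Mut2 and Mut3 of -0.73, -0.84 and -0.84 for ARG56 and -0.69, -0.57 and -0.60 for LYS2. ARO5 read 115 and 82.6 FPKM in the WT and 42.9 to 57.1 in the mutants. Its calls did not hold on leaving out WT 0 min library 0 in Mut1 (adjusted p = 0.0932) and Mut2 (adjusted p = 0.186), without Mut1 library 0 (adjusted p = 0.0692) or Mut2 library 1 (adjusted p = 0.122), and after rescaling in all 3. LEU4 was higher in Mut1 (385 and 381 FPKM against 295 and 286 in the WT) and in Mut2 (401 and 438), but the Mut1 call was lost on leaving out any of the 4 libraries and after rescaling, and the Mut2 call on leaving out Mut2 library 1 (adjusted p = 0.0611). LEU9, at 111 and 105 FPKM in Mut1 and 119 and 116 in Mut2 against 185 and 184, was called lower in both, calls lost after rescaling (adjusted p = 0.0782 and 0.17) and, in Mut2, on leaving out any of the 4 libraries. ARG1 was 2.30-fold lower in Mut1, at 155 and 186 FPKM against 382 and 403, and was called in Mut2 and Mut3 with the block alone (adjusted p = 0.106 and 0.226 without, 0.00194 and 0.00438 with it).

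SER33 (YIL074C), a phosphoglycerate dehydrogenase of the first step of serine synthesis, was higher. It stood at 121 and 111 FPKM in the WT, at 267 and 222 in Mut1, at 241 and 223 in Mut2 and at 227 and 223 in Mut3. All 6 mutant libraries lay above both WT libraries, and SER33 was 2.09-fold, 1.99-fold and 1.94-fold higher in Mut1, Mut2 and Mut3 (adjusted p = 0.000472, 0.00091 and 0.00232). In Mut3 this call was lost after rescaling (adjusted p = 0.117). Its isozyme gene SER3 read 29.4 and 32.0 FPKM in Mut1, below the 70.9 and 60.0 of the WT. That call did not hold when WT 0 min library 0 (adjusted p = 0.114) or Mut1 0 min library 0 (adjusted p = 0.0891) was left out, nor after rescaling.

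**Figure D5:**
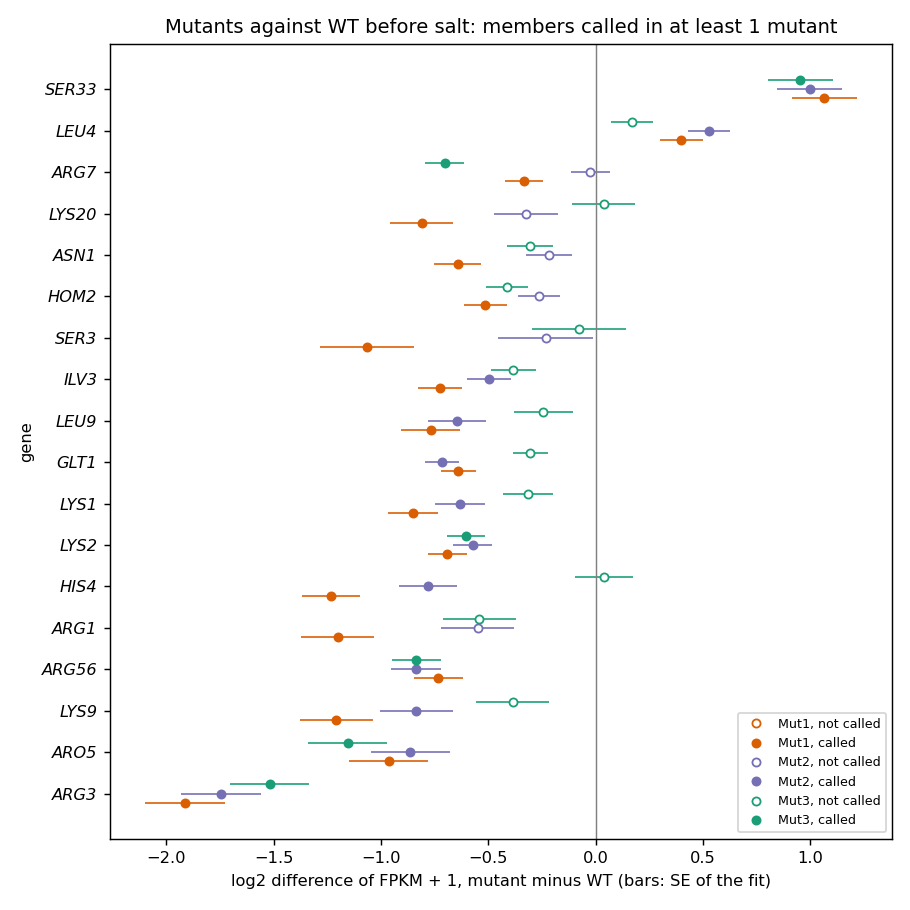
Log2 difference from the WT before salt, with its SE as a bar, for 18 genes called in at least 1 mutant, with filled symbols for called differences in Mut1, Mut2 and Mut3. ARG3 is lowest in each mutant, near -1.91, -1.75 and -1.52, and SER33 is highest, near 1.06, 1.00 and 0.95.

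HIS4 set Mut3 apart from Mut1, was not called between Mut2 and Mut1, and was not tested between Mut3 and Mut2. Before salt HIS4 read 94.0 and 86.4 FPKM in the WT, 35.9 and 39.6 in Mut1, 46.1 and 58.8 in Mut2 and 93.8 and 91.3 in Mut3. Mut3 thus lay with the WT, and Mut1 and Mut2 below both. HIS4 was 2.41-fold higher in Mut3 than in Mut1 (log2 difference 1.27, SE 0.14, adjusted p = 0.00011). Of the 69 genes, 6 were higher in Mut3 than in Mut1 (0.598% of all features) and 0 were lower (1.2%). The other 5, LYS20, ARO10, LYS9, SER3 and LYS1, each lost the call on leaving out a library, and the count was 4 without Mut1 library 0 or Mut3 library 1 and 1 without Mut1 library 1 or Mut3 library 0. With the block 17 were higher (3.27%) and 2 lower (5.58%), and after rescaling 3 and 0. Between Mut2 and Mut1, which differ by M92K in Ypd1, limma called 0 of the 69 genes and 0 of all features (0%). Without the block, 9 of the 69 had an unadjusted p under 0.05. With the block limma called 0 of the 69 at adjusted p under 0.05, and 0.0157% of all features higher.

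After salt several genes still differed from the WT. At 20 min 16 genes were lower in Mut1 (3.41% of all features), 14 in Mut2 (3.79%) and 11 in Mut3 (1.53%), and 3, 4 and 0 were higher (3.84%, 4.62% and 1.76%). Leaving out any of the 4 libraries lowered the count in both directions together to between 11 and 13 in Mut1, 10 and 14 in Mut2 and 5 and 6 in Mut3. Rescaling gave 8, 6 and 7 lower, and the block 33, 23 and 30 lower (15.5%, 16.5% and 9.36%) and 8, 11 and 1 higher (17.1%, 18.9% and 11.7%). At 10 min 19, 17 and 9 were lower (7.01%, 6.67% and 0.676%) and 3, 2 and 0 higher (6.73%, 5.13% and 1.05%). Without a library those 10 min counts came to 17 to 22 in Mut1, 11 to 15 in Mut2 and 2 to 4 in Mut3, and the block gave 37, 30 and 29 lower (20.9%, 19.4% and 5.79%) and 5, 6 and 2 higher (22%, 20.2% and 6.73%). LEU1 differed most in Mut1 and Mut2 at 20 min, at 73.0 and 61.0 and at 66.5 and 57.0 FPKM against 185 and 173 in the WT (2.65-fold and 2.88-fold lower, adjusted p = 4.5e-05 and 2.33e-05). In Mut3, too, LEU1 was called lower than in the WT at 20 min. That call was lost after rescaling (log2 difference -0.64, limma adjusted p = 0.277). SER33 stayed high in Mut1, at 277 and 234 FPKM at 20 min against 132 and 117. In Mut3, SER33 read 169 and 145 at 20 min, higher than the WT with the block alone (adjusted p = 0.359 without and 0.00618 with it).

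The salt response itself differed from that of the WT at a few of these genes in Mut1 and Mut2. More of them differed with the library number as a block. In both fits the counts at 10 min, and the lower calls at 20 min, were near the share of all features. The higher calls at 20 min in Mut1 and Mut2 were above that share. Taking the mutant's change minus the WT's change, at 10 min 2 genes differed in Mut1 (1 higher, 0.896% of all features, and 1 lower, 1.7%) and 2 in Mut2 (0.692% and 1.73%). At 20 min 3 were higher and 1 lower in Mut1 (0.881% and 1.62%) and 6 higher and 2 lower in Mut2 (1.43% and 1.7%). With the block 6 were higher and 8 lower in Mut1 at 10 min (7.41% and 8.98%), 6 and 7 in Mut2 (7.19% and 8.37%), and at 20 min 17 and 4 in Mut1 (6.62% and 8.85%) and 21 and 9 in Mut2 (12.5% and 12.8%). After rescaling Mut1 had 3 higher and 0 lower at 20 min, and Mut2 had 1 and 0 at 10 min and 2 and 0 at 20 min. In Mut3 limma called 0 genes at either time, against 0.0629% of all features higher and 0.126% lower at 10 min and 0.0786% and 0.22% at 20 min, with 1 and 7 genes at an unadjusted p under 0.05. With the block the Mut3 counts were 0 at 10 min (0.33% and 0.755%) and 2 higher and 3 lower at 20 min (1.79% and 1.93%).

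HIS4 was the gene whose response differed at both times in Mut1 and Mut2. In Mut1 it read 35.9 and 39.6 FPKM before salt and 31.8 and 39.2 at 20 min, a log2 change of -0.09 (SE 0.14) that was not called. The WT, which began higher, reached 32.4 and 31.5 FPKM, so WT and Mut1 differed before salt and lay within 31.5 to 39.2 at 20 min. The difference in change was 1.38 in Mut1 (SE 0.19, adjusted p = 0.00105) and 1.08 in Mut2 (SE 0.19, adjusted p = 0.00579). ARG56 libraries of Mut1 and Mut2, too, lay closer to the WT at 20 min than before salt, and their difference in change was 1.02 in Mut1 (SE 0.16, adjusted p = 0.00322) and 0.97 in Mut2 (SE 0.16, adjusted p = 0.00403).

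ARG82 and LEU1 had smaller changes with salt in Mut1 and Mut2 than in the WT. ARG82 began at 12.9 and 10.1 FPKM in Mut1 and 13.4 and 9.70 in Mut2, near the 9.96 and 9.45 of the WT. At 10 min it read 18.2 and 18.1 in Mut1, 24.0 and 20.4 in Mut2, 37.5 and 38.6 in Mut3 and 51.2 and 43.0 in the WT. The difference in change at 10 min was -1.54 in Mut1 (SE 0.24, adjusted p = 0.00303) and -1.27 in Mut2 (SE 0.24, adjusted p = 0.0105). The Mut2 call was lost without Mut2 10 min library 1 (adjusted p = 0.0565) and after rescaling (adjusted p = 0.0914). LEU1 read 52.0 and 47.2 FPKM before salt and 73.0 and 61.0 at 20 min in Mut1, 56.2 and 49.9 and then 66.5 and 57.0 in Mut2, and 66.5 and 56.3 and then 123 and 111 in Mut3. In Mut2 the LEU1 change at 20 min was called with the block alone (log2 change 0.21, adjusted p = 0.275 without and 0.00463 with it). Its difference in change at 20 min was -1.21 in Mut2 (SE 0.20, adjusted p = 0.00407), lost after rescaling (adjusted p = 0.102). ARO9 and ARO10 rose in every strain, ARO9 by 7.30-fold, 7.07-fold and 11.0-fold and ARO10 by 4.95-fold, 5.09-fold and 4.69-fold at 20 min in Mut1, Mut2 and Mut3, and the difference of either change from that of the WT was not called. With the block, the smaller ARO9 changes of Mut1 and Mut2 at 20 min were called (adjusted p = 0.495 and 0.312 without, 0.000353 and 0.000194 with it).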

How the data were processed

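RNA was prepared with miRNeasy and sequenced as stranded poly(A) libraries (TruSeq), per the labels' protocols. The authors deposited FPKM values per gene, made with TopHat2 and Cuffdiff on sacCer3 per the submitters' processing notes; tool versions, the annotation and the strand setting were not given in the sources used here. The 24 columns were matched to strain and time by name, 0 columns were left unused, and which column of a group is which labelled replicate is not stated. Values were taken as log2(FPKM + 1) for the 6359 features whose mean reached 1 FPKM. limma 3.58.1 (R 4.3.3) fitted 12 group means to the 24 libraries with an intensity trend (12 residual degrees of freedom), tested on simulated data, and p-values were adjusted by Benjamini-Hochberg over all features tested. Deviations of same-numbered libraries correlated in all 66 pairs of groups (r from 0.230 to 0.601), so the library number, 0 or 1 in the column names, pairs libraries; the fit with it as a block is given where it changes a call or moves a count over 1.5 times. Alternatives were pseudocounts of 0.1 and 5, no filter, median-ratio rescaling of the libraries, groups fitted alone and leaving out each library. Symbols, coordinates and sequence are from the R64 reference, to which 6079 of 7126 features matched. Genes given with tests were drawn from the 4 called genes with the largest change per pathway, called genes moving against the majority, isozyme pairs, GCN4 and the leading genes of related lists, not all of which are given in every comparison; further genes are named with values to describe each pathway. ARG56, ARO5 and SRG1 were placed in lists after the data were seen. The genes, lists and tests were chosen with earlier results of these data known. A gene whose own result is not reported here enters the counts.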

Additional observations from a re-analysis of the deposited data

Results flagged for a closer look

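These results are listed because the salt response of a mutant differed from that of the WT. The test was of the difference itself, the mutant's log2 change minus the WT's change in the same limma fit. At 10 min 2 of the 69 genes differed in Mut1, ARG82 by -1.54 and HIS4 by 1.09. In Mut2 2 genes differed, ARG82 by -1.27 and HIS4 by 0.97. Of all features 0.896% were higher and 1.7% lower in Mut1, and 0.692% and 1.73% in Mut2. With 1 gene (1.4%) in each direction, the 10 min counts were near those shares. The HIS4 call in Mut2 (adjusted p = 0.0149) was lost on leaving out 4 of the 8 libraries in turn, with an adjusted p of up to 0.0766 without WT 0 min library 0. At 20 min 4 genes differed in Mut1, among them ARG56 by 1.02, HIS4 by 1.38 and LEU1 by -1. Of these 4, 3 were higher (0.881% of all features) and 1 lower (1.62%). The LEU1 call in Mut1 was lost on leaving out library 0 of Mut1 at 0 min or of the WT at 20 min, or library 1 of Mut1 at 20 min or of the WT at 0 min (adjusted p from 0.0656 to 0.0783). In Mut2 at 20 min ARG56 differed by 0.97, ARG82 by -1.09, ARO5 by 1.09 and GLN1 by 0.83. HIS4 differed by 1.08, LEU1 by -1.21 and LYS2 by 0.51. They were among 8 genes called, 6 higher (1.43% of all features) and 2 lower (1.7%). That count was 4 on leaving out library 0 of the WT at 0 or 20 min or of Mut2 at 20 min, and 5 on leaving out library 1 of the WT at 0 or 20 min or library 0 of Mut2 at 0 min. The ARG82, ARO5, GLN1 and LYS2 calls were those lost. ARG56, at 80.5 and 85.2 FPKM in the WT before salt and 24.0 and 24.2 at 20 min, read 46.8 and 52.3 and then 28.0 and 31.4 in Mut1. In Mut2 ARG56 read 47.6 and 44.3 before salt and 28.1 and 25.1 at 20 min, so all strains' libraries lay closer together after salt than before it. The comparisons of Mut1 and Mut2 share the WT libraries.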

How the results depend on the processing

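Counts of the 69 genes called were within 1.5 times of those given above with pseudocounts of 0.1 or 5, and with no filter. After median-ratio rescaling, which moved the median of all features by up to 0.10 on the log2 scale (Mut3 at 20 min), they moved to 4 for Mut1 from 10 to 20 min, 5 for Mut3 against the WT at 10 min, 10, 7 and 7 for Mut1, Mut2 and Mut3 against the WT at 20 min, 3 for Mut3 against Mut1, and 1 and 2 for the response difference of Mut2 at 10 and 20 min; the cause was not tested. The library number as a replicate block gave 46, 32, 34 and 42 from 10 to 20 min in the WT, Mut1, Mut2 and Mut3. Against the WT the block gave 35, 28 and 25 at 0 min, 42, 36 and 31 at 10 min and 41, 34 and 31 at 20 min, and 19 for Mut3 against Mut1. For response differences it gave 14 and 13 in Mut1 and Mut2 at 10 min and 21, 30 and 5 in Mut1, Mut2 and Mut3 at 20 min. All 583 called results of the 69 genes and GCN4 kept their call and direction under the block, which added calls, named above where they touch a gene described. With the groups fitted alone, on 4 libraries (8 for response differences), the counts were 16, 17, 2 and 18 at 10 min and 25 and 14 in Mut1 and Mut2 at 20 min, within 1.5 times in the WT (39) and Mut3 (38) at 20 min, and 0 in the other comparisons, with fewer samples.

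Leaving out each library gave 29 to 36, 24 to 30, 27 to 32 and 31 to 34 at 10 min in the WT, Mut1, Mut2 and Mut3, and 45 to 48, 38 to 41, 40 to 43 and 44 to 46 at 20 min. From 10 to 20 min it gave 17 to 21, 2 to 5, 3 to 10 and 15 to 17. Against the WT it gave 14 to 17, 9 to 11 and 7 to 8 at 0 min, 17 to 22, 11 to 15 and 2 to 4 at 10 min and 11 to 13, 10 to 14 and 5 to 6 at 20 min. Mut3 against Mut1 gave 1 to 4, and response differences gave 2 in Mut1 and 0 to 2 in Mut2 at 10 min and 3 to 4 and 4 to 9 at 20 min. Of the 583 called results, 442 held after rescaling, 582 with each pseudocount and 175 with the groups fitted alone, where 408 were no longer called. Under any alternative 0 reversed. Read depth is unknown, and each group has 2 libraries, so small differences between weakly expressed genes may be missed.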
